A study of Danio rerio with 12 samples.

Results

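Uninjured heart ventricles were compared between adult zebrafish that lack functional MyD88 and their wild-type siblings. Of the 12 libraries of messenger RNA in the series, 4 came from untouched (UT) ventricles, 2 of *myd88*-/- and 2 of *myd88*+/+ fish, and these were taken by the genotype and treatment in their labels. All fish were of the AB background, the mutants carried the loss-of-function allele *hu3568*, and adults of both sexes between 3 and 12 months were used. Every library was a pool of 3 whole ventricles, so the spread between the 2 libraries of a group is that between pools, and an exact permutation test of 2 against 2 libraries could not go below a two-sided p of 0.33. The other 8 libraries were injured tissues of both genotypes, taken 1 hour or 24 hours after a cryoinjury (1 and 24 hpci). There were 2 per genotype and time, and they are set beside the UT libraries below as separate libraries of the same genotypes. They also entered the test of the UT ventricles, whose estimate of the spread was taken over all 12 libraries.

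MyD88 is the adaptor protein that most Toll-like receptors and the interleukin 1 receptor family use to pass a signal to IRAK kinases and from there to NF-κB and the MAP kinases. In the heart it is best known for the response to damage, in which it drives chemokine and cytokine genes and brings in neutrophils and macrophages. Immediate-early genes, heat shock genes and glucocorticoid targets are the fast stress responses of vertebrate tissue: they are switched on within minutes by stretch, warming, hypoxia, hormones or the handling of an animal, and need no new protein for it. The stress genes are named here by what they are known to respond to, and their levels do not show which stimulus was present.

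In UT ventricles the genes that were lower in *myd88*-/- hearts included immediate-early and heat shock genes, the peptide hormone gene *nppc*, *il11a* and glucose transporter genes. Those that were higher included the ubiquitin ligase adaptor gene *asb15b*, the mitophagy gene *bnip4* and the muscle gene *ky*. Of 16643 genes tested, 347 passed the thresholds (2.08% of all; the Benjamini-Hochberg adjusted p of limma had to be under 0.05 and the change over 1.5-fold), 191 of them lower (1.15%) and 156 higher (0.937%) in *myd88*-/-. The median log2 fold change was −1.70 for the lower genes and 1.62 for the higher genes, against −0.02 for all genes tested. In 69 of the lower and 48 of the higher genes the change was beyond 2 on the log2 scale. For every called gene the 2 *myd88*-/- libraries lay on 1 side of the 2 *myd88*+/+ libraries, which was the case in 31% of all genes downwards and in 27.2% upwards. The distance between the nearest libraries of the genotypes was at least 2-fold for 144 lower and 125 higher genes. Without the adjustment, 1355 of the 16643 genes were lower and 1363 higher at a limma p under 0.05.

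**Figure D1:**
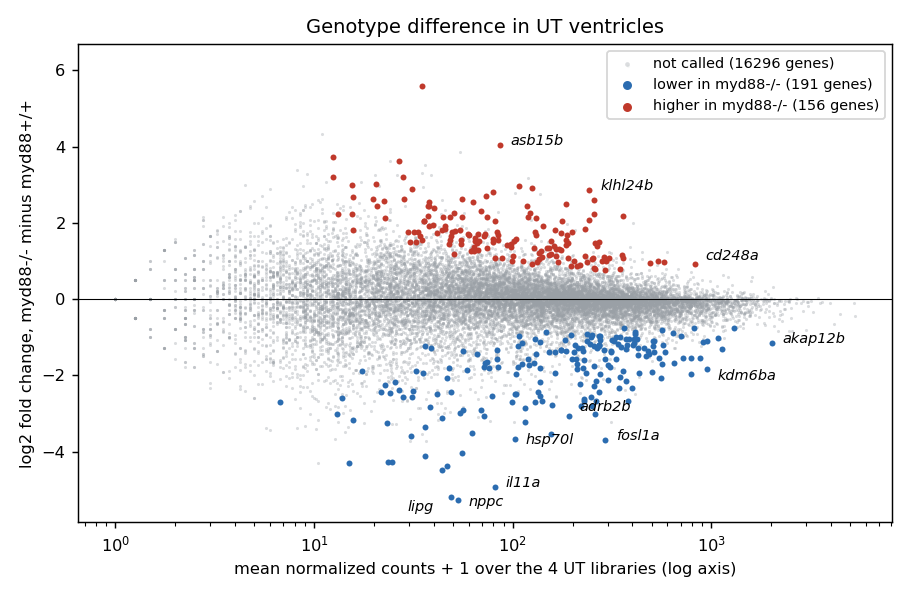
Log2 fold change between *myd88*-/- and *myd88*+/+ UT ventricles (vertical axis) against the mean normalized count over the 4 UT libraries plus 1 (horizontal axis, log scale), 1 point per gene tested. The 191 genes called lower (blue) and 156 called higher (red) lie over most of the range, and the cloud of the other genes (grey) narrows towards high levels.

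The number of calls rested on having both libraries of each group. It was 23, 53, 73 and 30 without *myd88*+/+ replicate 1, *myd88*+/+ replicate 2, *myd88*-/- replicate 1 and *myd88*-/- replicate 2, and 2366 when limma weighted the libraries by their spread. Through all 4 of these omissions 19 lower genes and 1 higher gene stayed called. The 19 were *nppc*, *lipg*, *syt4*, *atf3*, *fosl1a*, *jund*, *hsp70.3*, *hsp70l*, *slc2a3b*, *pfkfb3*, *slc25a25a*, *mfsd2ab*, *adrb2b*, *hrh3*, *adamts1*, *kdm6ba*, *pnp5a*, *zgc:153631* and *si:ch211-195b13.1*, and the higher gene was *bnip4*. *pnp5a* is named only for this. The last 2 of the lower genes are named for this and for the direct test of the difference between states. Each of the other genes named below as called lost its call without at least 1 of the 4 libraries. Most called genes, and nearly all of the higher ones, lost it whichever of the 4 was left out, *asb15b* and *irx4a* among them. The first 17 names thus hold 3 immediate-early transcription factors, 2 heat shock proteins, 2 receptors for amines, a glucose transporter and an enzyme that sets the rate of glycolysis.

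Immediate-early genes formed the list with the largest share of calls. Of 36 members tested, 12 fell in *myd88*-/- (33.3%, against 1.15% of all genes), 0 rose and 24 did not pass, and the median log2 fold change was −0.94. Both mutant libraries lay below both wild-type libraries for 29 of the 36 (80.6%, against 31% of all genes). Without *myd88*+/+ replicate 1, *myd88*+/+ replicate 2, *myd88*-/- replicate 1 or *myd88*-/- replicate 2 the number called was 3, 6, 9 and 5. The list had been seen to be low in these libraries before, so its count describes it and is not independent evidence of its direction.

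Among the AP-1 factors, *fosb* (chromosome 18) had 79 and 56 normalized counts in the *myd88*+/+ libraries and 4 and 2 in the *myd88*-/- libraries (log2 fold change −4.12, SE 0.52, limma adjusted p = 0.0046). Its relative *fosl1a*, which pairs with Jun proteins, had 774 and 309 against 56 and 24 (−3.70, SE 0.43, limma adjusted p = 0.0030). The stress-induced repressor *atf3* had 693 and 615 against 129 and 80 (−2.67, SE 0.28, limma adjusted p = 0.0017). In all 3 genes the lowest wild-type library stood several times above the highest mutant library. *fosl2* fell by 1.89 and *jund* by 1.69 on the log2 scale. The orphan nuclear receptor gene *nr4a1*, a fast target of cAMP and calcium signals, had 920 and 868 against 152 and 296 (−2.07, SE 0.27, limma adjusted p = 0.0051), and its mutant pools also differed from each other. *nr4a3* fell by 1.54, the matricellular gene *ccn1* by 1.55, the salt-inducible kinase gene *sik1* by 1.32, the zinc finger gene *egr3* by 1.29, and *csrnp1a* and *csrnp1b* by 1.23 and 1.00 on the log2 scale.

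Several of the classic members did not pass. *fosab*, the zebrafish c-Fos gene, had 835 and 627 against 136 and 404 (log2 fold change −1.62, limma adjusted p = 0.089), and its 2 mutant pools differed more from each other than the nearest pools of the genotypes did. *egr1* had 624 and 614 against 275 and 433 (−0.84, limma adjusted p = 0.069), and *junba* 671 and 473 against 200 and 344 (−1.10, limma adjusted p = 0.15). *btg2* showed the same picture, with 806 and 709 against 302 and 634. For *fosab*, *egr1*, *junba*, *btg2*, *nr4a1* and *ccn1* it was *myd88*-/- replicate 2 that had the higher mutant value, while for *fosl1a*, *fosb*, *atf3*, *fosl2* and *nr4a3* it was replicate 1. Little separated the genotypes for *jun* (684 and 621 against 393 and 569, −0.46), *maff* (236 and 218 against 202 and 167, −0.30) and *btg1* (1440 and 1376 against 1352 and 1436, −0.01). A few members pointed the other way without passing, among them *nr4a2a* with 1 and 20 against 75 and 116 (3.86, SE 1.12, limma adjusted p = 0.12) and *ptger4a*, a prostaglandin receptor gene, with 4 and 7 against 16 and 21 (1.61, limma adjusted p = 0.36). The remaining members *nr4a2b* (−1.96), *egr2a* (−1.66), *egr2b* (−1.45), *ier5l* (−0.98), *junbb* (−0.91), *ier2b* (−0.91), *fosl1b* (−0.83), *ier2a* (−0.67), *mycb* (−0.67), *npas4l* (−0.58), *ier5* (−0.37), *rgs2* (−0.16), *ccn1l1* (−0.06), *egr4* (0.00) and *myca* (0.42) did not pass either.

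**Figure D2:**
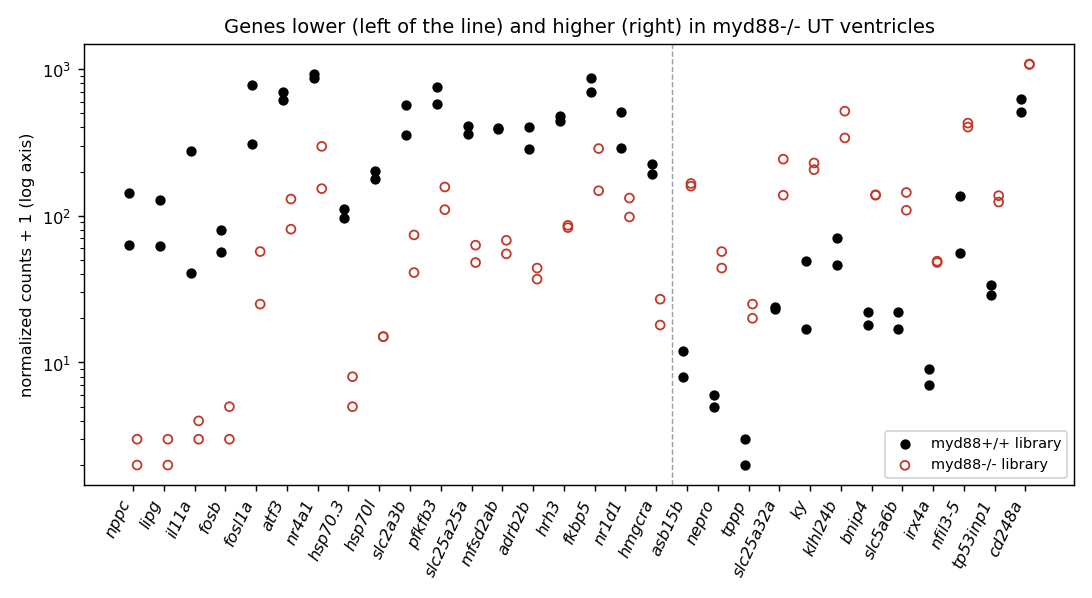
Normalized counts plus 1 (log axis) of 18 genes called lower and 12 called higher in *myd88*-/- UT ventricles, with 1 filled point per *myd88*+/+ library and 1 open point per *myd88*-/- library. In each gene both open points lie on 1 side of both filled points, and for *il11a* the 2 filled points lie far apart (275 and 40).

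The brakes on MAP kinase signalling are themselves induced by it. Of 17 tested, 3 fell (17.6%, against 1.15% of all genes), 0 rose and 14 did not pass, with a median of −0.57. The Sprouty gene *spry4* had 711 and 677 against 249 and 239 (log2 fold change −1.50, limma adjusted p = 0.0051), and the dual-specificity phosphatase gene *dusp8a* 807 and 914 against 303 and 229 (−1.70, limma adjusted p = 0.019). *dusp4* fell by 0.94 on the log2 scale. The phosphatase genes *dusp1* (639 and 718 against 292 and 540) and *dusp6* (972 and 910 against 677 and 776) did not pass. In the Krüppel-like factor list 1 of 14 fell (7.14%) and 1 rose (7.14%, against 0.937% of all genes), with a median of −0.65. These were *klf2b*, a flow-responsive factor of endothelium (1288 and 1197 against 528 and 607, −1.13), and *klf11a* (141 and 183 against 292 and 389, 1.06). Outside the list, *klf12b*, named after its values were seen, had 173 and 178 against 36 and 26 (−2.48, limma adjusted p = 0.031).

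Outside the lists, 3 genes of the CREB and CREM families were lower in *myd88*-/- and are named here after their values were seen. The gene *cremb* had 93 and 70 against 13 and 15 (log2 fold change −2.45, limma adjusted p = 0.012) and its paralog *crema* 473 and 458 against 237 and 180 (−1.17, limma adjusted p = 0.019). The gene *creb5a* had 439 and 413 against 95 and 96 (−2.14, limma adjusted p = 0.0040), with next to no spread within either group.

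Heat shock genes were the other stress group. Of 40 chaperones and co-chaperones tested, 5 fell in *myd88*-/- (12.5%, against 1.15% of all genes), 0 rose, and the median was −0.68. For 34 (85.0%, against 31% of all genes) both mutant libraries lay below both wild-type libraries. Leaving out any 1 of the UT libraries left 2 calls, *hsp70.3* and *hsp70l*. The called members were the inducible HSP70 genes and the co-chaperone *dnajb5*. *hsp70.3* (chromosome 3) had 96 and 111 against 4 and 7 (log2 fold change −4.04, SE 0.39, limma adjusted p = 0.0013), and *hsp70l* (chromosome 8) had 201 and 178 against 14 and 14 (−3.66, SE 0.35, limma adjusted p = 0.0013). *hsp70.1* had 93 and 103 against 9 and 16 (−2.92) and *hsp70.2* had 126 and 139 against 18 and 27 (−2.53). These copies are near-identical in sequence and reads that mapped to several places had been removed, so how the signal is split among them is uncertain. *dnajb5* had 216 and 185 against 31 and 23 (−2.86, limma adjusted p = 0.012). The constitutive chaperone *hspa8* had 1851 and 1802 against 1556 and 1657 (−0.19), *hsp90ab1* 1890 and 1858 against 1807 and 1969 (0.01), and neither passed. The inducible *hsp90aa1.1* had 1690 and 1637 against 813 and 1245 (−0.72, limma adjusted p = 0.39) and the small heat shock gene *hspb8* 1323 and 1300 against 824 and 833 (−0.66, limma adjusted p = 0.065). Outside the list, the small heat shock gene *hspb9* had 22 and 33 against 0 and 1, a ratio of 55.1 with a 95% exact counting interval of 9.47 to 2220.

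Other stress programmes moved less. In the unfolded protein and amino acid stress list 2 of 41 fell (4.88%, against 1.15% of all genes). These were *ppp1r15a* (580 and 479 against 174 and 258, −1.31) and *sesn2* (203 and 127 against 53 and 40, −1.78). The first encodes GADD34, which lifts the block on translation, and the second a sensor of leucine. The endoplasmic reticulum chaperone *hspa5* had 1248 and 1124 against 770 and 853 (−0.55, limma adjusted p = 0.48) and *chac1* 756 and 789 against 407 and 516 (−0.75, limma adjusted p = 0.19). Of 35 genes of the Nrf2 response to oxidants, 0 passed limma's test (4 lower and 0 higher at an unadjusted p under 0.05) and the median was −0.02. In the p53 and GADD45 list of 27 genes 1 fell (3.7%) and 1 rose (3.7%, against 0.937% of all genes). These were, in that order, *gadd45bb* (308 and 124 against 41 and 74, −1.81) and *tp53inp1* (28 and 33 against 123 and 136, 2.05).

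Peptide hormones gave some of the steepest differences. *nppc*, which encodes C-type natriuretic peptide, had 143 and 62 normalized counts in *myd88*+/+ and 2 and 1 in *myd88*-/- (log2 fold change −5.28, SE 0.52, limma adjusted p = 0.0013), a ratio of 68.2 with a 95% exact counting interval of 23 to 334. The natriuretic peptide-like gene *nppal* had 63 and 28 against 4 and 0 (ratio 22.5, interval 8.48 to 84.6) and the relaxin family gene *rln3a* 66 and 21 against 0 and 3 (ratio 29.0, interval 9.57 to 143). In all 3 the mutant libraries were at about the limit of detection, where 3 reads are worth 2.87 to 3.19 normalized counts. The ventricular stress hormone genes did not pass, as *nppb* had 542 and 465 against 301 and 284 (−0.78, limma adjusted p = 0.31) and *nppa* 1033 and 1058 against 894 and 1017 (−0.13). *nppc* was the only call among the 11 genes of the natriuretic peptide and receptor list (9.09%, against 1.15% of all genes), which did not hold *nppal*. The adrenomedullin genes *adm2a* (342 and 209 against 30 and 48, −2.78) and *adm2b* (81 and 51 against 11 and 6, −2.83), which encode vasodilator peptides and were named after their values were seen, fell as well.

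Among inflammatory ligands and induced genes 2 of 58 fell (3.45%, against 1.15% of all genes) and 0 rose. The cytokine gene *il11a*, whose protein signals through gp130 and STAT3 and is induced in injured fish fins and hearts, had 275 and 40 against 3 and 2 (log2 fold change −4.94, SE 0.69, limma adjusted p = 0.0086). The 2 wild-type pools were far apart, and the fold change ran from −6.32 to −3.57 as each library was left out. *ptgs2b*, the inducible cyclooxygenase gene, had 135 and 106 against 10 and 22 (−2.92, limma adjusted p = 0.029). In the interleukin 11 and STAT3 list the receptor gene *lifra* (46 and 34 against 8 and 5, −2.46) was the other of 2 calls among 24 (8.33%). The STAT3 target *socs3a* had 1093 and 735 against 312 and 434 (−1.28, limma adjusted p = 0.080) and *socs3b* 1041 and 486 against 426 and 326 (−0.93, limma adjusted p = 0.23), with no call.

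None of 47 genes of the Toll-like receptor and MyD88 pathway was called in limma's test (2.08% of all genes), 2 lower and 4 higher had an unadjusted p under 0.05, and their median was 0.05. *nfkbiab*, the NF-κB-induced inhibitor of NF-κB, had 428 and 283 against 281 and 407 (log2 fold change −0.04), *nfkb2* 617 and 314 against 418 and 663 (0.26) and *relb* 454 and 384 against 427 and 437 (0.05). The groups overlapped in all 3. Likewise 0 of 39 interferon response genes and 0 of 21 complement and acute phase genes were called, with medians of 0.08 for each and 3 and 1 genes at an unadjusted p under 0.05 in limma. The chemokine gene *cxcl18b* had 283 and 119 against 94 and 167 (−0.55, SE 0.42, limma adjusted p = 0.61), and its groups overlapped.

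Receptors for amines gave clear differences. *adrb2b*, a β2-adrenergic receptor gene, had 401 and 284 against 36 and 43 (log2 fold change −3.07, SE 0.27, limma adjusted p = 0.0010). *hrh3*, a histamine receptor gene, had 479 and 438 against 85 and 82 (−2.44, SE 0.24, limma adjusted p = 0.0013). The pools of a genotype lay close together in both. The vesicle protein gene *syt4* had 82 and 109 against 11 and 11 (−2.99, SE 0.28, limma adjusted p = 0.0013).

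The smallest p values belonged to a pair of transporters. *mfsd2ab*, a carrier of lysophospholipids, had 397 and 387 against 67 and 54 (log2 fold change −2.68, SE 0.19, limma adjusted p = 0.00032). *slc25a25a*, a calcium-regulated mitochondrial carrier of ATP-Mg and phosphate, had 407 and 362 against 62 and 47 (−2.81, SE 0.20, limma adjusted p = 0.00032). Its paralog *slc25a25b*, named after its values were seen, had 134 and 117 against 22 and 9 (−3.06, limma adjusted p = 0.043). The creatine transporter gene *slc6a8* had 288 and 276 against 45 and 12 (−3.53, SE 0.65, limma adjusted p = 0.025), and here the mutant pools differed from each other several fold.

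Genes of glucose uptake and of the control of glycolysis were among those lower in *myd88*-/-. In the list of 50 genes 3 fell (6%, against 1.15% of all genes), 0 rose and the median was −0.16. The high-affinity glucose transporter gene *slc2a3b* had 568 and 354 against 73 and 40 (log2 fold change −3.03, SE 0.34, limma adjusted p = 0.0026) and *slc2a3a* 65 and 46 against 6 and 2 (−3.60, SE 0.61, limma adjusted p = 0.019). *pfkfb3*, whose product makes the activator of phosphofructokinase, had 751 and 579 against 156 and 109 (−2.33, SE 0.21, limma adjusted p = 0.0011). Among the enzymes of the pathway itself, *hk1* had 2302 and 2254 against 1682 and 1879 (−0.36, limma adjusted p = 0.53). *pfkmb* had 1901 and 1892 against 1653 and 1802 (−0.14), and neither passed. Over the list, 29 of the 50 genes (58.0%, against 31% of all genes) had both mutant libraries below both wild-type libraries. In the hypoxia list of 43 genes 3 fell (6.98%) and 1 rose (2.33%, against 0.937% of all genes). The prolyl hydroxylase gene *egln3* had 601 and 506 against 103 and 173 (−2.04, limma adjusted p = 0.019) and *igfbp1a*, which binds insulin-like growth factors, had 172 and 181 against 69 and 50 (−1.57, limma adjusted p = 0.0051). *pfkfb3* is the third, as a target shared by both lists. The member that rose was *hif1aa* itself, with 199 and 166 against 357 and 431 (1.11, limma adjusted p = 0.034). *vegfab*, another known target of hypoxia, had 1760 and 1691 against 1050 and 1074 (−0.70, limma adjusted p = 0.15).

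Lipid genes included the 2 of 36 lipase, adipokine and lipid droplet genes that fell (5.56%, against 1.15% of all genes). *lipg*, which encodes endothelial lipase, had 61 and 127 against 2 and 1 (log2 fold change −5.18, SE 0.52, limma adjusted p = 0.0013), a ratio of 62.5 with a 95% exact counting interval of 21.1 to 306. The adiponectin gene *adipoqa* (chromosome 24, 26276805 onwards) had 82 and 84 against 6 and 1 (−4.49, SE 0.68, limma adjusted p = 0.012). The wild-type pools agreed within 3 counts for *adipoqa* and differed 2-fold for *lipg*. In sterol synthesis and uptake 3 of 35 fell (8.57%, against 1.15% of all genes). These were *hmgcra*, the rate-limiting reductase (191 and 224 against 26 and 17, −3.24, limma adjusted p = 0.011), *sqlea* (36 and 19 against 2 and 2, −3.18) and the receptor gene *ldlrb* (130 and 93 against 33 and 36, −1.65). The second reductase gene *hmgcrb* had 664 and 531 against 381 and 404 (−0.60, limma adjusted p = 0.22). Of 39 fatty acid oxidation genes 0 passed in limma (2 lower and 1 higher at an unadjusted p under 0.05), with a median of −0.04.

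In the glucocorticoid list 2 of 29 genes fell (6.9%, against 1.15% of all genes) and 0 rose, while its median was 0.15. Both mutant libraries lay above both wild-type libraries for 14 of the 29 (48.3%, against 27.2% of all genes). *fkbp5*, the standard reporter of cortisol action, had 691 and 874 against 286 and 147 (log2 fold change −1.92, limma adjusted p = 0.017), and the kinase gene *sgk1* had 745 and 654 against 345 and 308 (−1.10, limma adjusted p = 0.034). The pyruvate dehydrogenase kinase genes *pdk2a* (939 and 1283 against 1443 and 1397, 0.37) and *pdk2b* (839 and 803 against 1148 and 1147, 0.48) pointed the other way without passing, as did *hsd11b2*, which inactivates cortisol (506 and 690 against 950 and 990, 0.71, limma adjusted p = 0.24). The list's calls and its median thus differed in sign.

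Clock genes are another group that reads out a state at the hour of sampling. Of 42 tested, 3 fell (7.14%, against 1.15% of all genes) and 1 rose (2.38%, against 0.937%), with a median of −0.05. *nr1d1* (REV-ERBα) had 506 and 290 against 97 and 131 (log2 fold change −1.76, limma adjusted p = 0.031), *cry2* had 481 and 400 against 197 and 212 (−1.10, limma adjusted p = 0.024) and *bhlhe41* had 637 and 410 against 182 and 270 (−1.20, limma adjusted p = 0.034). The gene that rose was *nfil3-5*, a relative of the clock repressor NFIL3, with 136 and 55 against 427 and 401 (2.24, limma adjusted p = 0.034). The period genes had both mutant libraries below both wild-type libraries but no call, with *per1b* at 1087 and 1076 against 504 and 513 (−1.09, limma adjusted p = 0.058), *per2* at 1211 and 1162 against 624 and 467 (−1.13, limma adjusted p = 0.058) and *per3* at 897 and 865 against 452 and 446 (−0.97, limma adjusted p = 0.12). The nocturnin gene *nocta*, which a name match had placed in the ribosome biogenesis list, had 365 and 290 against 111 and 73 (−1.84, limma adjusted p = 0.0040). The labels give no hour of dissection and no record of handling for the pools, so with 2 pools per genotype neither can be told apart from the genotype.

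**Figure D3:**
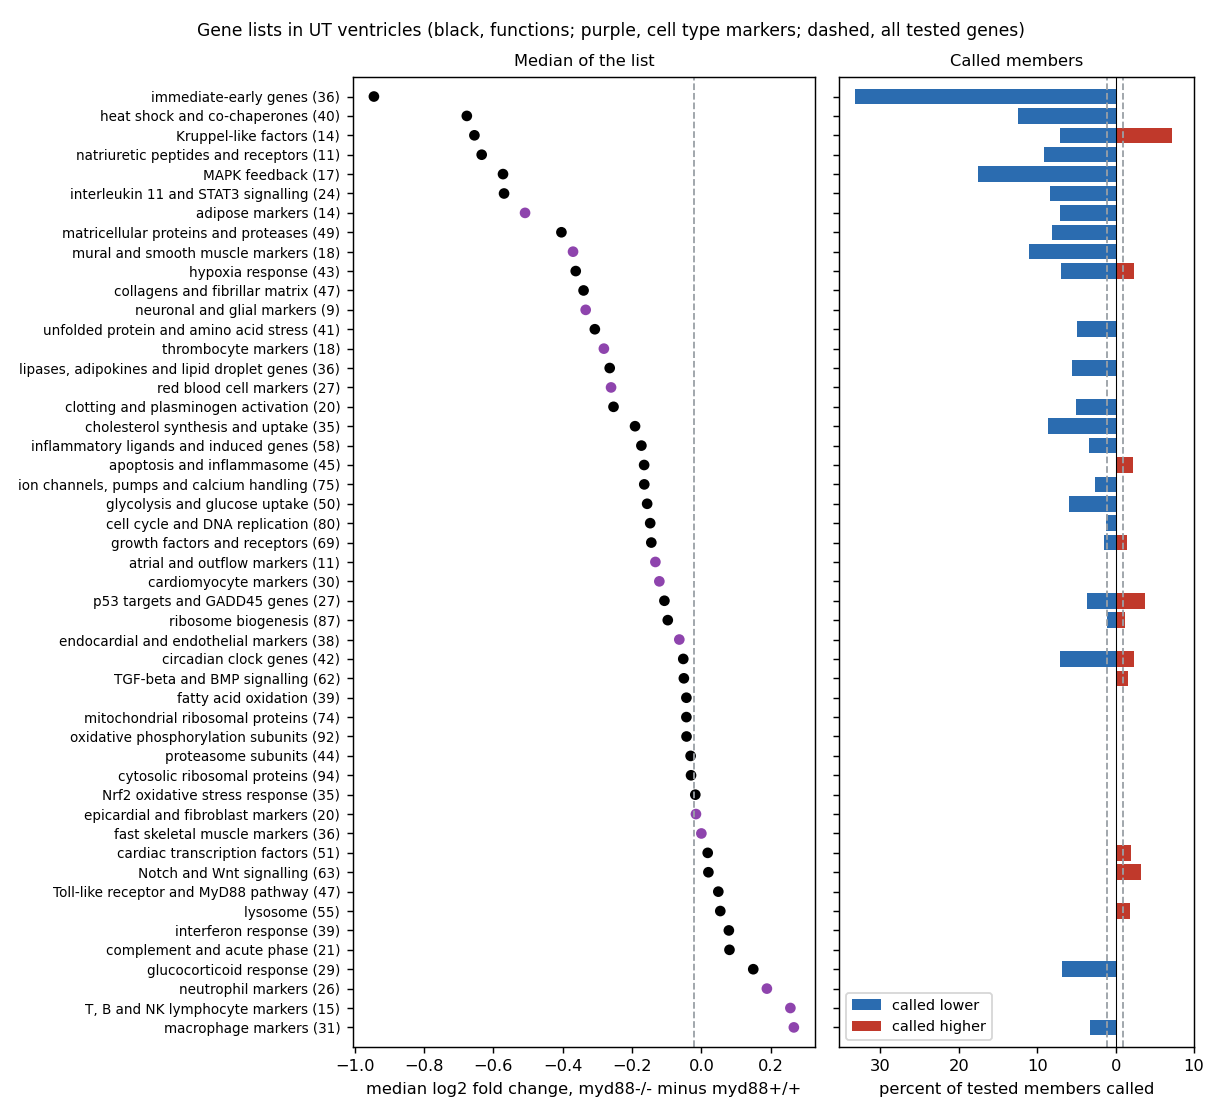
Median log2 fold change of the tested members of each list (left, number tested in brackets) and percent of them called lower (blue) or higher (red) in *myd88*-/- UT ventricles (right). Immediate-early genes stand at −0.94 with 33.3% called lower, heat shock genes at −0.68, and dashed lines mark all tested genes (median −0.02, 1.15% lower, 0.937% higher).

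Of 49 matricellular and protease genes 4 fell (8.16%, against 1.15% of all genes) and 0 rose, with a median of −0.40, among them *ccn1* and the metalloprotease genes *adamts1* (642 and 500 against 117 and 107, log2 fold change −2.33, SE 0.21, limma adjusted p = 0.0011) and *adamts9* (486 and 385 against 143 and 148, −1.57). The list of collagens and other fibrillar matrix genes had 0 calls in limma among 47 (5 lower at an unadjusted p under 0.05) and a median of −0.34, with *col1a1a* at 1964 and 1822 against 1738 and 2009 (−0.02). A collagen gene outside the list, *col27a1b*, named after its values were seen, had 38 and 49 against 5 and 11 (−2.38, limma adjusted p = 0.047). Of 75 channel and calcium genes 2 fell (2.67%). The potassium channel subunit gene *kcne4* was 1 of them (790 and 579 against 168 and 181, −1.95, limma adjusted p = 0.0040). The other was the calcium release channel gene *itpr1b* (496 and 389 against 241 and 197, −1.01). The calcium pump gene *atp2a2a* had 3122 and 3141 against 2877 and 3105 (−0.07). The cell cycle list had 1 call in 80 (1.25%, against 1.15% of all genes), the inhibitor gene *cdkn1cb* (13 and 8 against 0 and 2).

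Among the called genes with the highest values, 9 of 10 were lower in *myd88*-/-, against 191 of all 347 called genes. The lower genes had the higher values on the whole, which favours them in such a ranking. *akap12b*, a scaffold for protein kinase A, had 2657 and 2871 against 1341 and 1156 (log2 fold change −1.15, SE 0.20, limma adjusted p = 0.022). The histone demethylase gene *kdm6ba*, which inflammatory signals induce in mammals, had 1447 and 1500 against 474 and 356 (−1.84, SE 0.21, limma adjusted p = 0.0028). The autophagy kinase gene *ulk2* had 1313 and 1280 against 559 and 353 (−1.54, limma adjusted p = 0.035). *midn* (−1.10), the phosphate transporter gene *slc20a1b* (−1.03), the lysosomal membrane gene *scarb2a* (−0.77) and the sarcomere-associated *obsl1a* (−0.75) fell by less. The exception was *cd248a*, the endosialin gene of stromal and mural cells, with 508 and 628 against 1080 and 1072 (0.93, SE 0.18, limma adjusted p = 0.034). Also among the largest decreases were *cbarpb*, which encodes a regulator of calcium channels (83 and 93 against 5 and 2, −4.39), and *csrnp2*, a nuclear protein gene (103 and 120 against 18 and 4, −3.52).

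The genes higher in *myd88*-/- had lower values on the whole, with a median UT mean of 84.4 normalized counts against 217 for the lower genes and 96.8 for all genes tested. The largest increase of a gene with a symbol was that of *asb15b*, an ankyrin repeat and SOCS box protein of muscle that serves as an adaptor of a ubiquitin ligase. It had 7 and 11 against 165 and 158 (log2 fold change 4.05, SE 0.66, limma adjusted p = 0.017). Of 22 *asb* genes tested 3 rose and 0 fell, with a median of 0.44, and 77.3% had both mutant libraries above both wild-type libraries (27.2% of all genes). The others were *asb2a.1* (76 and 82 against 288 and 246, 1.74) and *asb10* (92 and 94 against 273 and 277, 1.55). The kelch-like genes, adaptors of a related ligase, had 3 higher and 1 lower of 35, and the F-box genes 4 higher and 0 lower of 53. *klhl24b* had 45 and 70 against 515 and 338 (2.87, SE 0.56, limma adjusted p = 0.033), *klhl42* 6 and 5 against 40 and 35 (2.57), and *fbxo40.1*, whose mammalian counterpart targets the insulin receptor substrate in muscle, 33 and 53 against 155 and 232 (2.15, limma adjusted p = 0.027). Zinc finger genes (*znf* and *zbtb*, 213 tested) had 6 higher and 4 lower, and 50.7% of them had both mutant libraries above. These 4 families were picked after the calls had been seen, and of all genes 0.937% rose and 1.15% fell.

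The increase with the smallest p value was that of *bnip4*, a mitochondrial protein of the BNIP3 family that serves mitophagy, with 21 and 17 against 138 and 137 (log2 fold change 2.80, SE 0.28, limma adjusted p = 0.0013). *casp9*, the initiator caspase, had 39 and 30 against 103 and 89 (1.46, limma adjusted p = 0.021). It was the only call among the 45 members of the apoptosis and inflammasome list (2.22%, against 0.937% of all genes), whose median was −0.17. *tp53inp1*, given above, is a target of p53. *ypel3*, named after its values were seen and a gene of growth arrest in mammals, had 32 and 39 against 180 and 217 (2.45, limma adjusted p = 0.019). The muscle gene *ky*, which helps to keep the neuromuscular system and sarcomeres intact, had 16 and 48 against 205 and 228 (2.91, SE 0.53, limma adjusted p = 0.024).

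Of 270 solute carrier genes, a family also picked after the calls had been seen, 6 rose and 12 fell, with a median of −0.13. Of all genes 0.937% rose and 1.15% fell. Among those that rose, the mitochondrial carrier gene *slc25a32a* had 23 and 22 against 242 and 137 (log2 fold change 2.96, SE 0.40, limma adjusted p = 0.0067) and *slc5a6b*, which encodes a multivitamin transporter, 21 and 16 against 143 and 108 (2.7, limma adjusted p = 0.021). The nucleolar gene *nepro* had 5 and 4 against 43 and 56 (ratio 10.3, 95% exact counting interval 5.20 to 23.1) and *tppp*, a tubulin-binding protein, 1 and 2 against 24 and 19 (ratio 13.5, interval 4.33 to 68.1). All 4 genes kept the genotypes apart by several fold. *irx4a*, the ventricular identity factor, had 6 and 8 against 48 and 47 (2.61, SE 0.52, limma adjusted p = 0.034). It was the only call among 51 cardiac transcription factors (1.96%, against 0.937% of all genes). Signalling genes that rose were *fgf17* (139 and 149 against 325 and 308, 1.13), the Wnt co-receptor and effector genes *lrp6* (148 and 155 against 250 and 315, 0.89) and *tcf7l2* (86 and 100 against 209 and 208, 1.16), *bambib*, a decoy receptor of TGF-β signals (37 and 31 against 99 and 100, 1.53), and the lysosomal ceramidase gene *asah1a* (18 and 27 against 61 and 85, 1.66). *trim44* (2.55), *sema6dl* (2.54), *itprid1* (2.62), *ccsapb* (2.62) and *pus7l* (2.67) completed the 15 largest increases.

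The basic machinery of the cell gave fewer calls than genes at large. Duplicate reads had been removed, which limits the values of abundant genes, so changes in these lists may be understated. None of 94 cytosolic ribosomal protein genes, 92 subunits of oxidative phosphorylation, 74 mitochondrial ribosomal protein genes or 44 proteasome subunits was called by limma (2.08% of all genes), and their medians lay between −0.04 and −0.03. At an unadjusted p under 0.05 there were 3 cytosolic ribosomal protein genes, all lower, and 0 of the other 3 lists. Among all 16643 genes tested there were 2718. *rpl13a* had 520 and 514 against 446 and 514 (log2 fold change −0.11, SE 0.33, limma adjusted p = 0.95).

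Markers of the cell types of the ventricle showed no call for cardiomyocytes (30 genes, median −0.12), endocardium and endothelium (38, −0.06) or epicardium and fibroblasts (20, −0.02). At an unadjusted p under 0.05 in limma these lists had 0, 8 and 0 genes, against 2718 of all 16643 genes tested. The summed values of the cardiomyocyte markers were 48458 and 49026 against 43271 and 42467, so the labelled tissue was plain in every library. All genes together summed to 3486201 and 3450373 against 3216673 and 3193551, a general difference to set beside the sums given here. Mural and smooth muscle markers summed to 9427 and 9359 against 7627 and 6887, with 2 of 18 lower, *kcne4* and the calponin gene *cnn1b* (308 and 280 against 131 and 95, −1.39). Red blood cell markers summed to 10338 and 10484 against 7865 and 7997, with 0 of 27 called by limma and 22 with a log2 fold change below 0. At an unadjusted p under 0.05 in limma there were 6, all lower, against 1355 lower of all 16643 genes tested. Macrophage markers summed to 4070 and 3611 against 4317 and 3982 and had a median of 0.27. Of 31 tested, 15 were separated upwards (48.4%, against 27.2% of all genes). Their only call (3.23%, against 1.15% of all genes called lower) was the class II gene *mhc2dab*, which was lower (61 and 44 against 7 and 9, −2.56). Neutrophil markers summed to 2340 and 1809 against 2667 and 1915, with 0 of 26 called by limma and 1 at an unadjusted p under 0.05. Adipose markers summed to 3099 and 3223 against 2500 and 2214, and *adipoqa* was their only call among 14 (7.14%, against 1.15% of all genes called lower). Fast skeletal muscle markers summed to 6895 and 6908 against 5958 and 6792, with 0 of 36 called by limma. Liver, gut and gonad markers summed to 1214 and 1023 against 891 and 1007, with 0 of 8 called. All 4 UT libraries were at 0 for 10 of 40 fast skeletal muscle genes and for 6 of 21 liver, gut and gonad markers. The part of the cardiomyocyte, mural, blood and adipose values in the differences above was not tested. Fewer cells of a type and less RNA per cell cannot be told apart in such pools.

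The mutated gene itself, *myd88* on chromosome 24 (20188914 to 20192996), had 63 and 56 against 32 and 37 (log2 fold change −0.77, SE 0.28, limma adjusted p = 0.19). It was called only with array weights (limma adjusted p = 0.020), and a count over the whole gene does not read the mutation. Within 10 Mb of it 6 of 223 genes were called (2.69%, against 2.08% of all genes): *adipoqa*, *CR753886.1* and *csrnp1b* were lower, and *klhl24b*, *mbtps2* and *si:ch211-196f5.9* higher. Over the whole of chromosome 24, 9 of 468 genes were lower and 8 higher (3.63%), the highest share of any chromosome. Chromosomes 2 (3.39%) and 8 (3.28%) stood close behind.

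The injured libraries show whether the same genes differed elsewhere between the genotypes. At 1 hpci 20 genes were called between the genotypes (0.12% of all) and at 24 hpci 5 (0.03%), by the same test. Leaving out any 1 of the UT libraries left 4 calls at each time. Of the 191 genes lower in UT ventricles, 57 (29.8%) had both mutant libraries below both wild-type libraries at 1 hpci, against 15.5% of all genes, and 75 (39.3%) at 24 hpci, against 12.2%. Of the 156 higher genes, 74 (47.4%) were separated upwards at 1 hpci, against 13.4%, and 78 (50.0%) at 24 hpci, against 16.1%. Their median log2 fold changes were much smaller there, −0.19 at both times for the lower genes and 0.40 and 0.28 for the higher genes. Genes chosen for large differences in UT libraries can show smaller ones in other libraries through that choice alone, by an amount not tested. By the same test, 1 of the 191 lower genes and 1 of the 156 higher genes were called in the same direction at 1 hpci, and 0 of either at 24 hpci. In all 3 states 18 of the lower genes (9.42%) and 39 of the higher genes (25.0%) had their libraries separated the same way. All called genes were separated in UT ventricles by their choice, so the shares beside these are those among all genes separated there, 3.9% downwards and 8.09% upwards, while among all genes tested they were 1.21% and 2.2%. The injured libraries also entered the estimate of the spread behind the calls. Genes whose pools agreed after injury were thus more readily called, which can raise the shares separated there by an amount not tested.

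**Figure D4:**
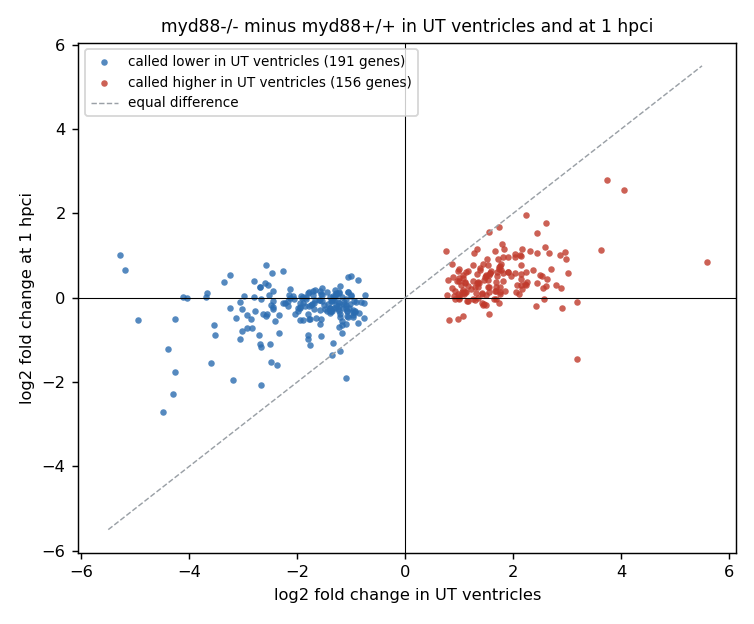
Log2 fold change between *myd88*-/- and *myd88*+/+ at 1 hpci (vertical axis) against that in UT ventricles (horizontal axis) for the 347 genes called in UT ventricles, 1 point per gene. Most lower genes (blue, median −0.19 at 1 hpci) and many higher genes (red, median 0.40) lie near 0 on the vertical axis, far from the dashed line of equal differences. The genes were chosen by their difference in UT ventricles, which alone can place them nearer 0 at 1 hpci.

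Many genes lower in UT ventricles showed little difference at 1 hpci, and a few kept it. At 1 hpci *fosl1a* had 2011 and 1591 in *myd88*+/+ and 1649 and 2015 in *myd88*-/- injured tissues (log2 fold change 0.03), *atf3* 1538 and 1193 against 1234 and 1445 (−0.02), and *nr4a1* 2627 and 2108 against 2328 and 2487 (0.03). The 36 immediate-early genes had a median of −0.02 at 1 hpci and −0.27 at 24 hpci, against −0.94 in UT ventricles. *nppc* had 91 and 95 against 134 and 269 at 1 hpci (1.02) and *hsp70l* 663 and 347 against 489 and 552 (0.11). In these 5 genes the *myd88*-/- libraries thus overlapped or exceeded the *myd88*+/+ libraries at 1 hpci. Duplicate removal limits high values, so differences at 1 hpci may be understated for *fosl1a*, *atf3* and *nr4a1*. At 24 hpci the values of *hsp70l* were lower in the mutants again, without a call (−1.75). For *adipoqa* the genotypes stayed apart, with 70 and 99 against 20 and 7 at 1 hpci and 18 and 23 against 1 and 0 at 24 hpci, and *nppal* and *slc2a3a* did so as well. None of them was called at 1 or 24 hpci. Among the higher genes *asb15b* had 15 and 58 against 276 and 116 at 1 hpci and 5 and 9 against 42 and 18 at 24 hpci, and *asb2a.1* 68 and 64 against 228 and 200 and then 5 and 2 against 33 and 18. *asb2a.1* and *asb10* had nearly the same difference at 1 hpci as in UT ventricles (1.68 against 1.74 and 1.55 in both). In contrast *irx4a* had 9 and 8 against 10 and 11 at 1 hpci.

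**Figure D5:**
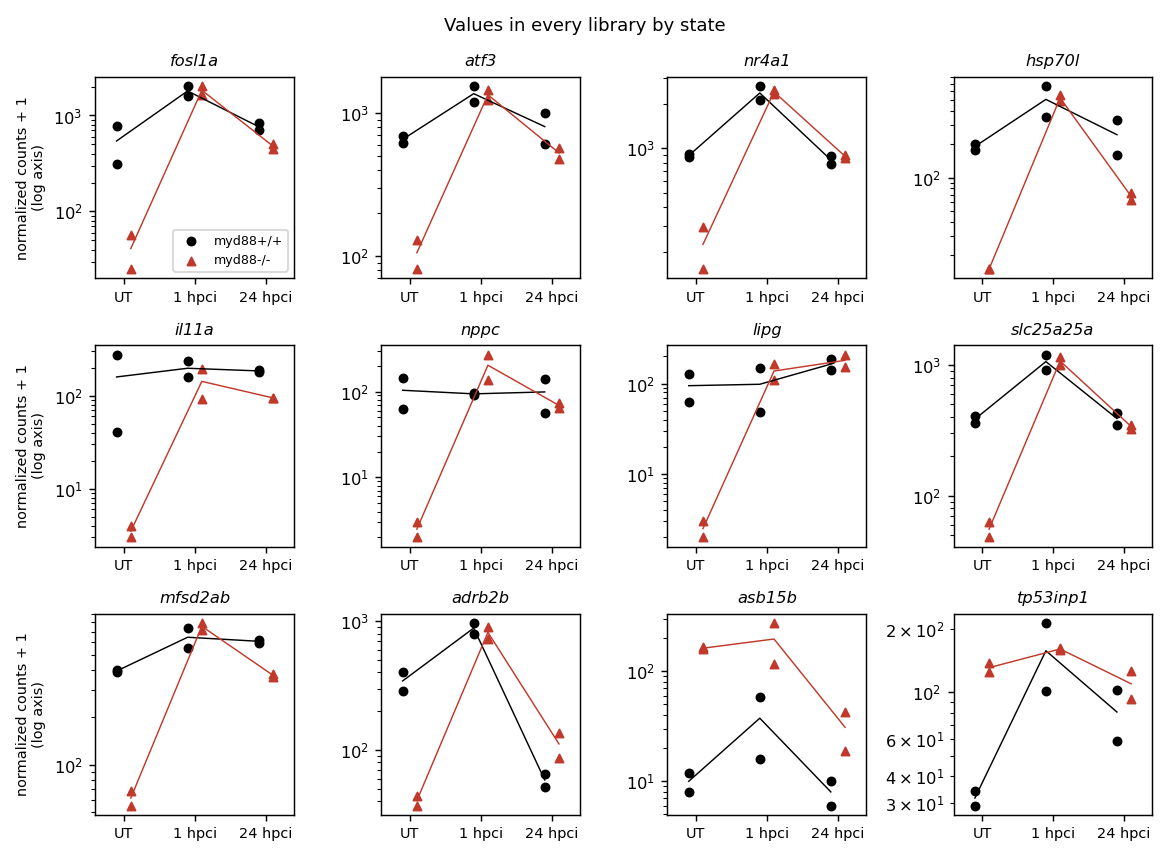
Normalized counts plus 1 (log axis, a scale of its own in each panel) of 12 genes in UT ventricles and in injured tissues at 1 and 24 hpci, with 1 point per library (black circles *myd88*+/+, red triangles *myd88*-/-) and lines through the group means. In the first 10 panels the *myd88*-/- points are low in UT ventricles and meet the *myd88*+/+ points at 1 hpci, while for *asb15b* they stay above at all times and for *tp53inp1* they start above and meet them.

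The difference between the genotype effects was tested directly. It passed for 23 genes between UT ventricles and 1 hpci (0.138% of all) and for 8 between UT ventricles and 24 hpci (0.0481%), and these tests share the UT libraries with the comparison above. Without *myd88*+/+ replicate 1, *myd88*+/+ replicate 2, *myd88*-/- replicate 1 or *myd88*-/- replicate 2 it passed for 2, 8, 3 and 4 genes at 1 hpci and for 2, 8, 5 and 3 at 24 hpci. Among the genes lower in UT ventricles 14 passed against 1 hpci and 6 against 24 hpci, and among the higher genes 3 and 0. Set against UT ventricles of their own genotype, injured tissues at 1 hpci had a median log2 fold change over the 191 lower genes of 0.13 in *myd88*+/+ and 1.55 in *myd88*-/- hearts, with 32 and 122 of them called higher, against 833 and 982 of all 16643 genes tested. The 156 higher genes had medians of 0.85 and −0.35. Each of these values shares the UT libraries by which the genes were chosen, and injured tissues are another part of the heart than whole ventricles.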

How the data were processed

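The authors sequenced stranded poly(A) libraries single-end, used Trimmomatic 0.39 for trimming and STAR 2.7.3a for alignment to the danRer11 genome, removed duplicate, multimapping, ribosomal and mitochondrial reads with Picard 2.21.7, and counted exon reads with featureCounts 1.6.5 (versions per the submitters' processing notes). The deposited values are a score, gene counts divided by the DESeq2 1.26.0 size factors and rounded to whole numbers by the authors, called normalized counts here. Removing duplicates of single-end reads limits the values of abundant genes: the highest value in a UT library was 6179, and changes of such genes may be understated. UT libraries held 3193551 to 3486201 normalized counts. From the spacing of low values, 1 read was worth 0.956 to 1.06 of them, which gives 3036272 to 3365425 reads.

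Samples were grouped by the labels. The test took in genes whose mean exceeded 5 in the 12 libraries and was run on log2(value + 1), a scale that understates changes of low genes, with limma 3.58.1 in R 4.3.3 (trended empirical Bayes, 6 group means, Benjamini-Hochberg adjustment over all genes), with calls at an adjusted p under 0.05 and over 1.5-fold change. Replicates were pools of 3. The p-values rest on a spread between pools estimated over all 6 groups, injured tissues included, and not on that of the UT pools alone. The median absolute log2 difference between the 2 pools was 0.18 in *myd88*+/+ and 0.21 in *myd88*-/- UT ventricles. It was 0.25 to 0.51 in the injured groups. Counting intervals are exact binomial (scipy 1.17.1) over estimated reads and cover counting error only. The labels state no pairing of the genotypes by replicate number. The correlation of their deviations was −0.02 in UT ventricles, −0.13 at 1 hpci and −0.35 at 24 hpci. The steps were tested on simulated data. Alternatives were other pseudocounts, filters, scalings, variance settings, a replicate block and leaving out each UT library.

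Genes were named by fixed rules: the 15 largest decreases and increases with a symbol, the 10 highest and the 10 with the smallest p among called genes, called and most abundant members of the gene lists, immediate-early genes, *myd88*, *rpl13a*, *cxcl18b*, and called genes within 10 Mb of *myd88*. Under these rules or the test of the difference between states, 2 genes are not reported here. Members and lists were chosen with earlier results of these data known. The lists of growth factors, TGF-β and BMP, Notch and Wnt, apoptosis, lysosome, clotting, ribosome biogenesis and atrial, thrombocyte, lymphocyte and neuronal markers had 0 to 2 calls each.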

Additional observations from a re-analysis of the deposited data

Results flagged for a closer look

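In the direct test of the difference, the genotype effect in UT ventricles differed from that in injured tissues for 18 of the called genes reported here. Each value below is the log2 fold change in UT ventricles minus that after injury, from limma.

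Against 1 hpci the value was −6.30 for *nppc* (adjusted p = 0.018), −5.85 for *lipg* (adjusted p = 0.021), −4.03 for *hsp70.3* (adjusted p = 0.029), −3.78 for *hsp70l* (adjusted p = 0.023), −3.03 for *syt4* (adjusted p = 0.023), −2.96 for *adrb2b* (adjusted p = 0.021), −2.93 for *mfsd2ab* (adjusted p = 0.0030), −2.83 for *slc25a25a* (adjusted p = 0.0067), −2.65 for *atf3* (adjusted p = 0.047), −2.34 for *camk2n1a* (adjusted p = 0.047), −2.10 for *zgc:153631* (adjusted p = 0.047), −2.22 for *hrh3* (adjusted p = 0.047) and −1.93 for *pfkfb3* (adjusted p = 0.047). These 13 genes were called lower in UT ventricles. At 1 hpci the genotype difference was −0.40 for *pfkfb3* and 1.02 for *nppc*. Of the genes higher in UT ventricles, *foxp1a* had a value of 1.55 (adjusted p = 0.047), *bnip4* of 2.5 (adjusted p = 0.047) and *tppp* of 4.65 (adjusted p = 0.047). At 1 hpci *tppp* pointed the other way without a call and at low values (8 and 20 against 4 and 4, log2 fold change −1.46).

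Against 24 hpci the value was −5.32 for *lipg* (adjusted p = 0.043), −3.97 for *adrb2b* (adjusted p = 0.0050), −3.24 for *si:ch211-195b13.1* (adjusted p = 0.0048), −2.61 for *slc25a25a* (adjusted p = 0.014), −1.97 for *mfsd2ab* (adjusted p = 0.037) and −1.95 for *jund* (adjusted p = 0.032). For *adrb2b* the difference pointed the other way at 24 hpci, with 51 and 64 against 135 and 86, without a call (log2 fold change 0.90, limma adjusted p = 0.70).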

How the results depend on the processing

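The 347 called genes (191 lower, 156 higher) kept their sign in each alternative fit, while their number did not hold. Their UT libraries were all separated by genotype, so only the other scalings could have turned a sign. Quantile normalization called 586 (304 higher), array weights 2366 (1195 lower, 1171 higher), a threshold of 0.1 on the adjusted p 716 (382 lower, 334 higher) and eBayes without trend 206 (93 lower). Both libraries of a group had the same array weight, so the weighting acted between groups. It was 2.26 in *myd88*+/+ and 1.75 in *myd88*-/- UT ventricles and 0.334 to 1.43 in the injured groups. With a replicate block 218 were called (87 higher), 214 of them, 61.7% of the 347, shared with the unblocked fit. The labels do not say whether replicate numbers pair the pools. Fitting only the 4 untouched libraries called 412 genes and shared 52.7% of the 347. Leaving out each UT library gave 23 to 73 calls, 20 to 65 lower and 3 to 12 higher; here an arm has 1 library, assumed to vary like the others. Other pseudocounts, filters, TMM, cyclic loess and robust eBayes left the counts within 1.5 times.

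The tests of the difference, whose alternatives were added after seeing the data, passed for 23 genes at 1 hpci and 8 at 24 hpci. At 1 hpci this was 14 with no filter, 15 with TMM, 37 with quantile normalization, 1 without trend, 12 with robust eBayes, 7 with the replicate block, 36 with array weights, and 2 to 8 with a library left out. At 24 hpci it was 27 with quantile normalization, 3 without trend, 5 with the block, and 2 to 8 with a library left out. The 12 immediate-early calls became 6 with only the untouched libraries, 24 with array weights, and 3 without *myd88*+/+ replicate 1. The planned count models were not run, because the deposited values are scaled and rounded.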
